A study of Rattus norvegicus with 32 samples.

Results

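Obese control rats were compared with lean control rats that ate the same diet. The samples were chosen by their labels alone, 8 arrays of Obese control rats and 8 of Lean control rats, which are 16 of the 32 arrays in the series. The other 16 arrays came from obese rats on diets with an added oil, 8 on the ALA diet and 8 on the LA diet. They entered the estimate of the spread within groups and the mean brightness by which features and tested genes were chosen. They did not enter the difference itself. Each gene was represented by 1 array feature, the brightest of those that carry its symbol alone, and 10917 of 14557 such genes were bright enough to be tested.

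Both control groups were male rats, with the genotype given as Zucker lean or Zucker obese, and the labels name no further allele. They ate the AIN-93G diet without restriction for 12 weeks and were 18 weeks old when the red part of the tibialis anterior, a muscle at the front of the shin, was taken under pentobarbital anaesthesia and frozen. Each rat gave 1 array, made from 100 ng of total RNA, so the replicates are separate animals. The values are log2 intensities, in which a difference of 1 is a doubling. The obese Zucker rat has an altered leptin receptor in all of its tissues, so the comparison is between whole animals and not between muscles that differ in 1 gene alone. Food intake and body weight were not analysed here and cannot be told apart from the genotype, and the receptor gene Lepr was not analysed here either, so the genotype labels could not be checked on it.

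Leptin is the hormone by which fat tissue reports its stores to the brain, and rats that cannot sense it overeat, become obese and lose sensitivity to insulin. The red part of the tibialis anterior is its oxidative part, with slow and fast oxidative fibres, many capillaries and many mitochondria. Muscle fibres take up fatty acids from capillaries, burn them in mitochondria and peroxisomes, and answer to growth hormone, insulin, nerve activity and signals from vessels and connective tissue.

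The arrays carried the RNA of muscle, with a mean of 11.57 to 12.04 over 5 measured markers of fast fibres in the 16 rats, but 3 obese controls stood apart. In obese control 5 all 17 measured hepatocyte genes were higher than in any other control rat, with Alb, serum albumin, at 11.83 against 4.53 to 6.75 elsewhere. The mean over the list was 8.86 in that rat and 3.83 to 4.23 in the others. In it 85 tested genes lay more than 1 log2 unit above every other control array, and 1 of these was called. Obese controls 4 and 7 had a mean over 14 macrophage markers of 5.58 and 5.78, and the other 6 obese controls lay between 4.91 and 5.26. Their mean over satellite cell and myoblast markers was 6.24 and 6.32, against 5.30 to 5.44, while lean controls reached 6.19. Chrna1, the alpha subunit of the muscle acetylcholine receptor, which muscle raises when its nerve supply is lost, was at 10.64 and 10.80 in them, against 6.00 to 7.54 in the other obese controls. Lean control 2 stood apart from the other lean controls in the same gene, at 9.50. Array medians lay between 3.83 and 3.99, and no 2 arrays were identical. What these 3 rats add to each result was not tested by any means other than leaving them out, and results are given with and without them. In whole muscle, fewer cells of a type and less RNA per cell cannot be told apart.

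Falls were more frequent than rises and most were small. Limma called 192 genes at an adjusted p below 0.05, which is 1.76% of those tested, with 145 lower (1.33%) and 47 higher (0.431%). Rises were 24.5% of the calls, but this split depends on scaling: they were 35.6% after a second quantile normalisation, 36.9% after one over the tested genes, and 45.2% (84 of 186) with arrays centred on the median of those genes. Of the 145 falls, 75 were under 0.5 log2 units, 55 lay from 0.5 to 1 and 15 were at least 1. The median fall was 0.49 log2 units, or 1.40-fold. Among the 47 rises, 22 were under 0.5 and 7 at least 1, with a median of 1.45-fold. Without regard to the test, 608 genes were lower and 433 higher by over 0.25 log2 units, and the median of all genes was 0.0019. The smallest called fall was 0.201, in Smyd1, a muscle methyltransferase needed for sarcomere assembly. The number of arrays limits the precision: the standard error of a gene's difference had a median of 0.0875. On simulated data with the same groups, 23.6% of changes of 0.25, 85.2% of changes of 0.5 and 97.4% of changes of 1 were recovered. Many changes of the smaller kind would thus be missed. The simulated noise was independent between genes, had 1 spread per gene for all groups and held no rats that stood apart. The real obese controls varied more than the lean controls (median SD 0.185 against 0.143), so these shares may be too high.

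**Figure D1:**
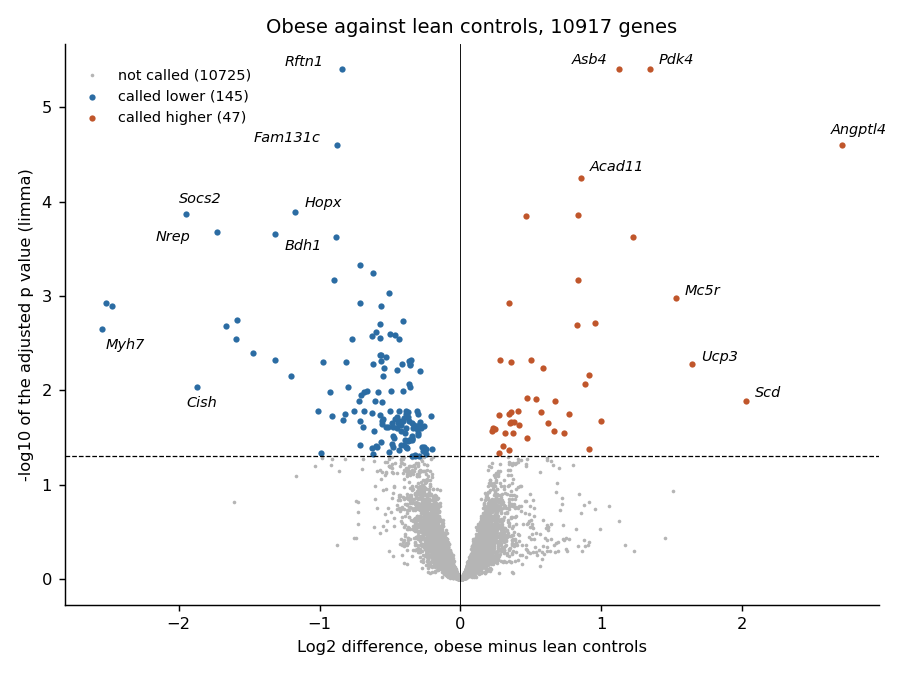
Difference between obese and lean controls on the log2 scale (x axis) and the negative log10 of limma's adjusted p (y axis) for 10917 genes. Each point is a gene, the dashed line marks an adjusted p of 0.05, and the 145 called falls outnumber the 47 called rises, while the largest single difference is the rise of Angptl4.

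All 8 obese controls lay on the same side of all 8 lean controls in 71 genes, 0.65% of those tested, with 54 below (0.495%) and 17 above (0.156%). Among called genes, this held for 48 falls and 16 rises. Of the called falls under 0.5 log2 units, 15 were of this kind. One was Trim72, a membrane repair protein of muscle, which ran from 8.23 through a median of 8.28 to 8.51 in lean controls and from 7.76 through 7.95 to 8.22 in obese controls. The gap between the groups was narrow. The difference was -0.36 (standard error 0.08, adjusted p = 0.00914), against an SD of 0.11 in lean and 0.14 in obese controls (n = 8 each). Bin1, which shapes the membrane tubules that carry the action potential into the fibre, ran from 10.71 to 10.98 in lean and from 10.50 to 10.67 in obese controls. Its groups did not overlap although the fall was only 0.21 (adjusted p = 0.0187). Dok4, an adaptor of receptor kinases, fell by 0.36 (adjusted p = 0.00482), and Adam9, a membrane metalloprotease, by 0.29 (adjusted p = 0.00614), again without overlap.

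Grouped by kind of protein, most called genes belonged to none of the lists. Most tested genes also lay outside the lists, which covered 3262 of 10917. They held 64 of the called falls (1.96% of listed genes, against 1.33% of all genes). They held 14 of the called rises (0.429%, against 0.431% of all genes). Secreted proteins had 12 called falls among 355 tested genes (3.38%) and contractile proteins 6 among 123 (4.88%), against 1.33% of all genes. Transcription regulators, with 9 of 631 (1.43%), and membrane proteins, with 17 of 992 (1.71%), were near the share of all genes. The classes differ in how many small lists they hold, and no test between classes was run. Without obese controls 4, 5 and 7 the falls numbered 7 among secreted proteins (1.97%), 2 among contractile proteins (1.63%), 6 among transcription regulators (0.951%) and 7 among membrane proteins (0.706%), against 0.669% of all genes.

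**Figure D2:**
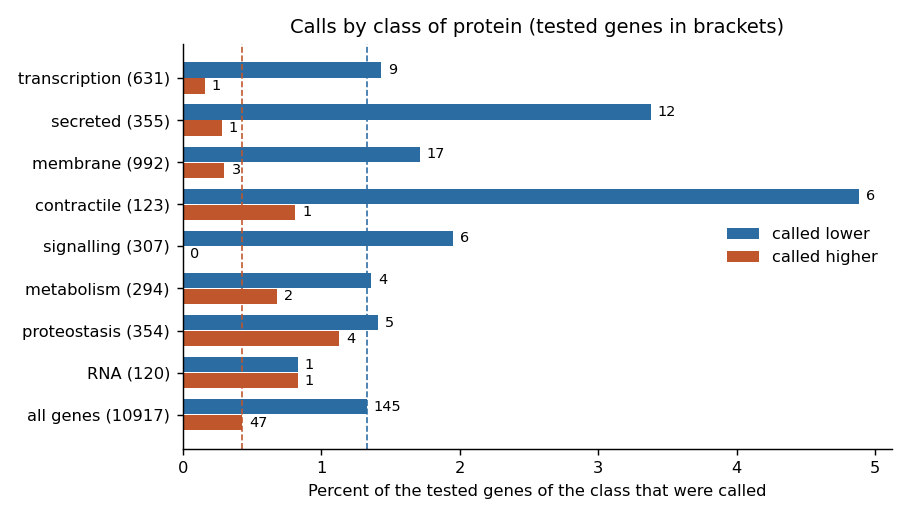
Percent of the tested genes of each class that were called lower (blue) or higher (orange) in obese controls, with the number called at each bar and the tested genes in brackets. Dashed lines give the shares over all genes, and secreted and contractile proteins have the longest bars for falls.

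Transcription regulators that fell belonged to several families and included the master factor of muscle. Hopx, a small homeodomain protein that binds partners and not DNA, ran from 6.82 through a median of 7.09 to 7.60 in lean and from 5.34 through 6.00 to 6.26 in obese controls. No obese rat reached the lowest lean rat, and the fall was 1.17 log2 units (2.26-fold, adjusted p = 0.000128). Among 85 tested homeobox genes it was the only one called (1.18%, against 1.76% of all genes). Myod1, the helix-loop-helix factor that commits cells to muscle, ran from 7.47 through 8.07 to 8.47 in lean and from 6.60 through 7.23 to 7.60 in obese controls. The groups overlapped in 2 obese rats, and the fall was 0.83 (adjusted p = 0.0206) with all rats and 0.99 (adjusted p = 0.0217) without obese controls 4, 5 and 7. It was the only called gene among 61 helix-loop-helix factors (1.64%). Zfp385d, a zinc finger protein, fell by 0.88 without overlap (adjusted p = 0.000238), while its relative Zfp385a rose by 0.67 with overlap (adjusted p = 0.0267, lost without any 1 of 6 arrays, up to 0.0793).

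Of 82 coregulators and chromatin enzymes 3 were called, all lower (3.66%, against 1.76% of all genes), and 1 of these 3 remained called without obese controls 4, 5 and 7. Tet1, which oxidises methylated cytosine in DNA, ran from 7.81 through 8.10 to 8.57 in lean and from 6.81 through 7.33 to 7.51 in obese controls. The groups were apart (log2 difference -0.82, adjusted p = 0.0176), but the call was lost without obese controls 4 and 7 (-0.70, adjusted p = 0.0906). Cited4, a cofactor of the acetyltransferases CBP and p300, fell by 0.54 (adjusted p = 0.00583) and remained called without obese controls 4, 5 and 7 (adjusted p = 0.0424). Smyd1 lost its call without any 1 of 12 arrays (adjusted p up to 0.104). Outside these lists, Rnf2, the ubiquitin ligase of Polycomb complex 1, fell by 0.50 without overlap (adjusted p = 0.00255, and 0.00454 without obese controls 4, 5 and 7). Lmo4, a LIM adaptor of transcription complexes, fell by 0.36 (adjusted p = 0.00543).

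Ppara, the nuclear receptor that drives genes of fatty acid oxidation, was called lower. It ran from 7.33 through 7.60 to 7.82 in lean and from 5.87 through 7.15 to 7.58 in obese controls. Obese control 7 was lowest at 5.87 and obese control 4 next at 6.60, and 7 obese rats lay below every lean rat. The difference of -0.63 (adjusted p = 0.0408) lost its call without any 1 of 11 arrays (adjusted p up to 0.0913) and was -0.33 without obese controls 4, 5 and 7 (adjusted p = 0.37). It was the only called gene of 18 nuclear receptors (5.56%, against 1.76% of all genes). No call was made among 22 KLF, SP and EGR factors, 25 forkhead factors, 39 leucine zipper factors and 41 factors of the ETS, GATA, SOX, RUNX, T-box, MEF2 and NFI families. Lists of these sizes would hold few or no calls at the share of all genes. Among the uncalled, Nr4a2, an orphan receptor induced by activity, differed by -0.92 (adjusted p = 0.0618), Srebf1, a factor of lipid synthesis, by -0.47 (adjusted p = 0.269), Foxo1, a factor of fasting and atrophy, by 0.36 (adjusted p = 0.352), and Myc by 0.50 (adjusted p = 0.282). Irf9, the DNA-binding part of the interferon response factor, fell by 0.38 (adjusted p = 0.0405), and its call was lost without any 1 of 10 arrays (adjusted p up to 0.105).

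The lists of secreted proteins, which also hold protease inhibitors, membrane proteases and the collagen chaperone Serpinh1, had 12 called falls and 1 called rise. The largest of these falls was in Lgi1, a secreted protein first known from synapses, which ran from 5.35 through 5.74 to 6.47 in lean and from 3.43 through 4.37 to 4.95 in obese controls. There was no overlap (log2 difference -1.47, adjusted p = 0.00402). Wnt16, a Wnt ligand, ran from 4.62 through 4.90 to 5.35 in lean and from 3.88 through 4.14 to 4.44 in obese controls. All obese rats lay below all lean rats (-0.77, adjusted p = 0.00284), and it was the only call among 32 Wnt ligands and antagonists (3.12%, against 1.76% of all genes). Angptl2, an angiopoietin-like protein linked to inflammation, fell by 0.49 (adjusted p = 0.0101) and Pdgfd, a platelet-derived growth factor, by 0.45 (adjusted p = 0.0061). Pdgfd lay near the dim end of the array, at 3.70 to 4.36 in lean and 3.39 to 3.92 in obese controls. The rise in this class was that of Angptl4, from a lean median of 4.12 to an obese median of 6.78, so 2 angiopoietin-like proteins moved in opposite directions. Esm1, another vascular secreted protein, differed by -0.43 and was not called (adjusted p = 0.129).

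Wfdc1, a protease inhibitor of the whey acidic protein family, showed how much the rats that stood apart can add. It ran from 7.03 through 7.51 to 7.65 in lean and from 5.07 through 6.86 to 7.14 in obese controls. Obese controls 7 and 4 were lowest, at 5.07 and 5.45, and the next obese rat was at 6.57. The fall of 0.98 (adjusted p = 0.00502) was 0.60 without obese controls 4, 5 and 7, and was called there too (adjusted p = 0.00247). Scube2, a secreted carrier of hedgehog proteins that lies outside the lists, ran from 4.99 to 5.57 in lean and from 4.47 to 4.82 in obese controls, without overlap (-0.57, adjusted p = 0.00196, and 0.0127 without those 3 rats). Bmp4, a bone morphogenetic protein, lay lower in all obese rats than in any lean rat (-0.43, adjusted p = 0.0423), but its call was lost without any 1 of 12 arrays (adjusted p up to 0.109).

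Ntn4, a netrin of basement membranes, fell by 0.55 (adjusted p = 0.00707). Fndc5, the precursor of irisin, ran from 9.57 to 9.99 in lean and from 8.83 to 9.56 in obese controls, and its call (-0.47, adjusted p = 0.02) was lost without obese control 4 or 7 (adjusted p up to 0.0537). Il33, an alarm cytokine of stromal cells, fell by 0.56 (adjusted p = 0.0228) and lost the call without lean control 1, 3, 5 or 6 (adjusted p up to 0.0595). Kitlg, the ligand of the receptor Kit, fell by 0.50 (adjusted p = 0.0444), and so did Kit itself, by 0.28 (adjusted p = 0.0247). Kit lay near the dim end of the array, at 3.50 to 3.98 in lean and 3.32 to 3.69 in obese controls. The Kitlg call was lost without any 1 of 12 arrays (adjusted p up to 0.116) and that of Kit when lean control 1, lean control 3, obese control 1 or obese control 5 was left out (adjusted p up to 0.0642). Ostn, the myokine osteocrin, which binds the natriuretic clearance receptor, had a lean median of 6.56 and an obese median of 4.94, yet overlapped and was not called (-1.60, adjusted p = 0.152). No gene was called among 12 fibroblast growth factors, 13 complement proteins and 51 matrix glycoproteins and proteoglycans. With 1.76% of all genes called, few or no calls would fall in lists of these sizes.

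The 3 natriuretic peptide receptors fell together. This set was singled out after its values were seen, so their common direction is a description. Npr3, the clearance receptor, ran from 6.16 through 6.94 to 7.53 in lean and from 5.44 through 6.03 to 6.70 in obese controls. All obese rats but 2 lay below every lean rat (-0.93, adjusted p = 0.0103). Npr1 and Npr2, the guanylyl cyclase receptors of the atrial and C-type peptides, fell by 0.34 (adjusted p = 0.022) and 0.30 (adjusted p = 0.0491), the latter without overlap. Leaving out lean control 6, lean control 8 or obese control 6 ended the call of Npr1 (adjusted p up to 0.0623), and Npr2 lost it without any 1 of 13 arrays (adjusted p up to 0.115). Without obese controls 4, 5 and 7 the adjusted p values of Npr3, Npr1 and Npr2 were 0.0676, 0.0975 and 0.295, so none was called.

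Several called genes with known roles in vessel lining were lower. Nrp1, a coreceptor of vascular growth factor and semaphorins, ran from 7.86 through 7.98 to 8.22 in lean and from 6.90 through 7.55 to 7.71 in obese controls. The groups were apart (-0.57, adjusted p = 0.00417), with obese controls 4 and 7 the 2 lowest. Plxnd1, a semaphorin receptor of endothelium, fell by 0.58 (adjusted p = 0.0103), and Aplnr, the apelin receptor, by 0.72 (adjusted p = 0.013). Pcdh12, a protocadherin of endothelium, fell by 0.43 (adjusted p = 0.0166), and Scarf1, a scavenger receptor first found there, by 0.43 (adjusted p = 0.0209, but up to 0.0564 when lean control 4, obese control 4 or obese control 7 is left out). Among 28 ephrins, semaphorins, plexins and guidance receptors, 4 were called and all were lower, which is 14.3% against 1.76% of all genes. The other 2 were Sema5a (-0.47, adjusted p = 0.0316) and Sema6a (-0.39, adjusted p = 0.0397), which lost their calls without any 1 of 8 and 12 arrays (adjusted p up to 0.0856 and 0.109). Sema5a lay near the dim end of the array, at 3.79 to 4.50 in lean and 3.46 to 3.98 in obese controls. Without obese controls 4, 5 and 7 no gene of this list was called, with adjusted p = 0.0548 for Nrp1 and 0.0628 for Plxnd1.

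The 3 genes of capillary lining described next were called higher. Cd300lg, a mucin-like receptor of capillary endothelium, ran from 3.59 through 3.97 to 4.50 in lean and from 4.38 through 4.81 to 6.08 in obese controls. Obese control 8 was highest at 6.08, and 6 obese rats lay above every lean rat (0.88, adjusted p = 0.00861). Rbp7, a retinol-binding protein of capillaries and fat, ran from 5.13 to 5.87 in lean and from 5.92 to 6.54 in obese controls, without overlap (0.77, adjusted p = 0.0178). Gpihbp1, which carries lipoprotein lipase to the capillary surface, was called with and without obese controls 4, 5 and 7 (adjusted p = 0.0169 and 0.0363), as were Cd300lg (adjusted p = 0.00712) and Rbp7 (adjusted p = 0.0366). The mean over 8 endothelial markers ran from 6.84 to 7.20 in lean and from 6.40 to 7.17 in obese controls, and obese controls 4 and 7 were lowest at 6.40 and 6.54. Their part in the endothelial falls was not tested. Of these 8 markers 2 were called (25%, against 1.76% of all genes), both lower, and none without obese controls 4, 5 and 7. Tie1, an endothelial receptor kinase, fell by 0.57 (adjusted p = 0.018, but 0.0507 without lean control 6) and was at -0.39 without those 3 rats (adjusted p = 0.201). Cdh5, the cadherin of endothelial junctions, fell by 0.53 (adjusted p = 0.0245), a call that ended when lean control 6, lean control 8, obese control 4 or obese control 7 was left out (up to 0.0677). It was at -0.40 without the 3 rats (adjusted p = 0.223). The uncalled Egfl7 and Emcn differed by -0.40 (adjusted p = 0.0597) and -0.29 (adjusted p = 0.211). Of the 8 markers 6 were lower and 2 higher, and their median difference was -0.241 with all rats and -0.0844 without obese controls 4, 5 and 7.

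Of 165 G protein-coupled receptors 3 were called, 2 higher and 1 lower, which at 1.82% is the share of all genes (1.76%). Mc5r, a melanocortin receptor, ran from 4.47 through 4.63 to 4.98 in lean and from 5.58 through 6.21 to 6.50 in obese controls. All obese rats lay well above all lean rats (1.53, adjusted p = 0.00105), and the difference was 1.52 without obese controls 4, 5 and 7. Cx3cr1, the fractalkine receptor of macrophages, rose by 0.32 without overlap (adjusted p = 0.0284), though near the dim end of the array, at 4.00 to 4.36 in lean and 4.42 to 4.69 in obese controls. Its call was lost without any 1 of 6 arrays (adjusted p up to 0.0758). Of 77 adhesion molecules 3 were called, all lower (3.9%), and 1 of them also without obese controls 4, 5 and 7. One was Bcam, a laminin receptor, which ran from 7.11 to 7.42 in lean and from 6.55 to 7.06 in obese controls (-0.51, adjusted p = 0.000917).

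Channels and carriers showed few calls, but at the share of all genes (1.76%) lists of these sizes would hold few or none. No call was made among 57 potassium channels, 6 voltage-gated sodium channels, 13 calcium channels, 19 chloride channels, 34 TRP, Piezo and other cation channels, 33 amino acid transporters and 27 glucose, monocarboxylate and sodium-glucose transporters. Nor was a gene called among 49 cytokine, growth hormone and TNF receptors, 17 integrins and 19 genes of the neuromuscular junction. Slc30a3, a zinc carrier, fell by 0.42 (adjusted p = 0.023, but up to 0.0581 when lean control 3, lean control 8 or obese control 6 is left out). Slc7a5, a carrier of large amino acids, differed by 0.49 with all rats (adjusted p = 0.244) and by 0.03 without obese controls 4, 5 and 7. Itgb2, the beta chain of leukocyte integrins, differed by 0.47 (adjusted p = 0.0533). Aqp7, a glycerol channel of fat and muscle, ran from 6.42 to 7.64 in lean and from 6.15 to 8.40 in obese controls, and was not called with all rats (0.62, adjusted p = 0.278).

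**Figure D3:**
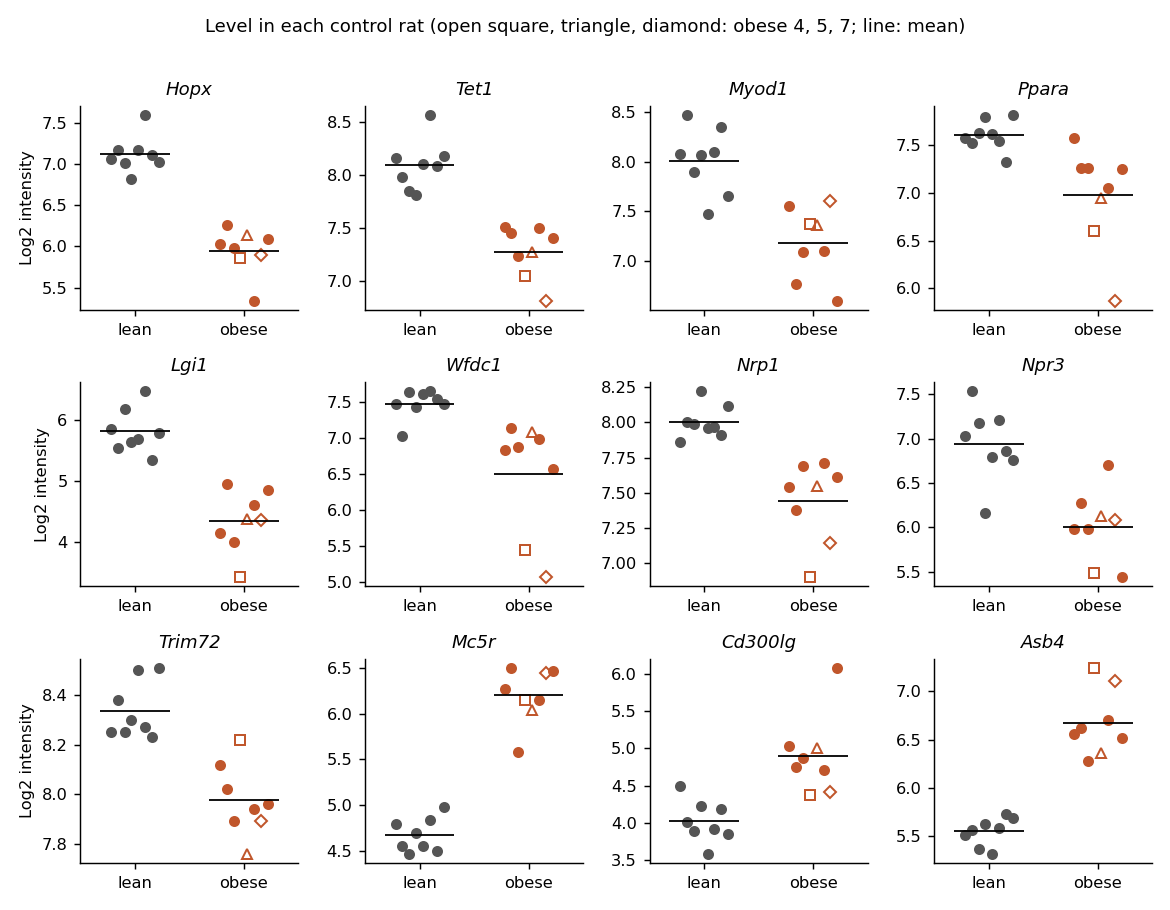
Log2 intensity (y axis) of 12 genes in each lean (grey) and obese (orange) control rat, with open squares, triangles and diamonds for obese controls 4, 5 and 7 and a line for the mean of each group. The groups are apart in Hopx, Tet1, Lgi1, Nrp1, Trim72, Mc5r and Asb4, and the 2 lowest values of Wfdc1 and Ppara belong to obese controls 4 and 7.

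Of 9 slow fibre markers 7 were called, all lower (77.8%, against 1.76% of all genes), and 5 of them also without obese controls 4, 5 and 7. Of 19 genes of excitation-contraction coupling 2 were called (10.5%) and of 41 Z-disc, M-band and sarcomere assembly genes 2 (4.88%), all lower. The 2 coupling genes, Atp2a2 and Casq2, are among the called slow fibre markers and are not further calls. The 2 sarcomere genes were Pdlim1 and Smyd1, and neither was called without obese controls 4, 5 and 7. Smyd1 is also counted among the coregulators above. Casq2, the calcium store protein of slow and cardiac muscle, ran from 7.83 through 8.20 to 9.43 in lean and from 6.92 through 7.21 to 7.44 in obese controls. The groups were apart (-1.20, adjusted p = 0.00707). Myl3, the slow and ventricular essential myosin light chain, ran from 11.42 to 11.91 in lean and from 10.24 to 11.36 in obese controls, but its fall of 0.69 (adjusted p = 0.0103) was 0.45 without obese controls 4, 5 and 7 and not called (adjusted p = 0.121). Myh7b, a second slow myosin heavy chain, fell by 0.61 (adjusted p = 0.0268, but not called without any 1 of 5 arrays, up to 0.063). Pdlim1, a Z-disc adaptor, fell by 0.80 without overlap (adjusted p = 0.00911). The slow markers Tpm3 (-0.19, adjusted p = 0.582) and Pln (0.36, adjusted p = 0.218), slow tropomyosin and the inhibitor of the slow calcium pump, were not called, and Pln had the opposite sign. Jph2, which ties membrane tubules to the calcium store, differed by -0.50 (adjusted p = 0.0649) and by -0.26 without those 3 rats. Ankrd1, a stretch-responsive sarcomere protein, reached 11.26 among obese and 9.56 among lean controls, with medians of 5.79 and 5.16, and its difference of 1.23 (adjusted p = 0.497) became -0.25 without obese controls 4, 5 and 7.

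Of 307 genes of intracellular signalling 6 were called lower (1.95%) and none higher, which is near the 1.33% and 0.431% of all genes. Cish and Socs2 encode inhibitors that cytokine and growth hormone receptors induce through STAT factors and that then block those receptors. Cish ran from 6.08 through 7.33 to 8.51 in lean and from 4.96 through 5.53 to 6.06 in obese controls, so the groups met without overlap (-1.87, adjusted p = 0.00918). Its fall was 2.09 without obese controls 4, 5 and 7. Because Cish is known as a STAT target, its promoter is shown with letters of the form TTCNNNGAA, the core of a STAT site, in capitals. The sequence is from RefSeq, build GRCr8, chr8:116850719-116851018, forward strand, and runs from 250 bases before the annotated start to 50 after it.
Cish: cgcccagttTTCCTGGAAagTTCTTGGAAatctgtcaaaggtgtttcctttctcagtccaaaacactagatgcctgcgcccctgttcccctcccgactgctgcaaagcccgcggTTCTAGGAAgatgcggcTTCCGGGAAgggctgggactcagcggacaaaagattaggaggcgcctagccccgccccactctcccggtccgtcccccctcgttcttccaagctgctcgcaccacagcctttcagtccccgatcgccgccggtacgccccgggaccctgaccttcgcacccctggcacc
The window held 4 such matches, which begin at -241, -230, -136 and -119 from the start, in 2 pairs. These letters read the same on both strands. They stood in 6.71% of the 8805 promoters of tested genes, in 5.04% of 119 promoters of called falls and in 10.5% of 38 promoters of called rises. The 6 called falls with a match included Cish and not Socs2. A match is a description of the letters and not a site of binding.

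The promoter of Trim72, whose small fall is described above, is from the same source. Letters of the form CTA, any 4 bases and TAG are in capitals. They hold the outer bases of a site for MEF2 factors of muscle. The 4 middle bases were left free, so a match need not be such a site. The 6 called falls with a match included Trim72 and none of the called slow fibre markers. The Trim72 promoter lies at chr1:192043970-192044269 on the forward strand.
Trim72: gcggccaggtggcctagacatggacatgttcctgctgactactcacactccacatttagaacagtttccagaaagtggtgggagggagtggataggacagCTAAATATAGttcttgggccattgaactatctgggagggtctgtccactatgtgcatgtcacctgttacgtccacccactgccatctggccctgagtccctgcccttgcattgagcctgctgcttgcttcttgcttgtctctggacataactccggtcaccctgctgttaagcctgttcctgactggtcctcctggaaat
The window held 1 match, at -150, and 2.99% of all promoters, 5.04% of those of called falls and 2.63% of those of called rises held 1. The myogenic E-box CAGCTG stood in 16.5%, 15.1% and 15.8% of them, in the same order.

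The called kinases, adaptors and related regulators named next came from several lists and from outside them. Mknk1, a kinase of the translation factor eIF4E, ran from 7.27 through 7.52 to 7.85 in lean and from 6.52 through 6.92 to 7.02 in obese controls, without overlap (-0.63, adjusted p = 0.00263). Map2k6, which activates p38, fell by 0.57 (adjusted p = 0.0028) and remained called without obese controls 4, 5 and 7 (adjusted p = 0.00872). Rftn1, an organiser of lipid rafts, ran from 6.01 through 6.38 to 6.54 in lean and from 5.27 through 5.49 to 5.92 in obese controls. No rat overlapped (-0.84), and its adjusted p of 3.98e-06 was the smallest of any fall. Rassf2, a Ras-association protein, fell by 0.56 (adjusted p = 0.00482), Prex1, a Rac exchange factor, by 0.36 (adjusted p = 0.0209), and Plcg1, a phospholipase activated by receptor kinases, by 0.37 (adjusted p = 0.0169), with no overlap for Rassf2 and Plcg1. Prkab1, a subunit of the energy sensor AMPK, fell by 0.36 (adjusted p = 0.0331) and lost its call without any 1 of 8 arrays (adjusted p up to 0.0909). Irs1, an insulin receptor substrate, ran from 7.44 through 8.18 to 8.90 in lean and from 6.17 through 7.02 to 7.91 in obese controls. The groups overlapped, and its fall of 1.01 (2.01-fold, adjusted p = 0.0165) was 0.71 without obese controls 4, 5 and 7 and not called there (adjusted p = 0.21). Irs2, the other main substrate in muscle, had a difference of -0.43 and was not called (adjusted p = 0.419). In the other direction Phlda3, which competes with AKT for membrane lipids, rose by 0.53 (adjusted p = 0.0123), and Pip4k2c, a phosphoinositide kinase, by 0.47 (adjusted p = 0.012).

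Several called falls were single enzymes or assembly factors of mitochondria and of lactate use, with no list of their own. Bdh1, the mitochondrial enzyme that opens ketone body oxidation, ran from 4.91 through 5.72 to 6.11 in lean and from 3.82 through 4.20 to 5.23 in obese controls. Only obese control 5, the rat with liver transcripts, reached the lean range, at 5.23 (-1.31, adjusted p = 0.000219). Without that rat the difference was -1.44 (adjusted p = 3.57e-05). Oxct1, the next enzyme, ran from 11.21 to 11.51 in lean and from 10.28 to 11.19 in obese controls, without overlap. Ldhb, the heart-type subunit of lactate dehydrogenase, ran from 9.32 through 9.88 to 9.98 in lean and from 7.15 through 8.43 to 9.12 in obese controls. Obese control 7 was lowest, and the fall of 1.31 (adjusted p = 0.00471) was 0.95 and uncalled without obese controls 4, 5 and 7 (adjusted p = 0.0808). Sdhaf2, which assembles succinate dehydrogenase, fell by 0.41 (adjusted p = 0.00184). Atpaf2, an assembly factor of ATP synthase, fell by 0.33 (adjusted p = 0.0251), and Timm10b, of the mitochondrial import machinery, by 0.60 (adjusted p = 0.0388). Their calls were lost without any 1 of 6 and 8 arrays (adjusted p up to 0.065 and 0.104).

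The kinases Pdk4 and Pdk1, which switch off pyruvate dehydrogenase, moved in opposite directions. Pdk4 ran from 9.59 through 10.28 to 10.87 in lean and from 11.39 through 11.60 to 11.72 in obese controls. Pdk1 ran from 7.10 to 7.30 in lean and from 6.55 to 7.11 in obese controls (-0.39, adjusted p = 0.0166). It was not called without obese controls 4, 5 and 7 (-0.29, adjusted p = 0.197). Bckdk, the kinase that restrains breakdown of branched-chain amino acids, ran from 9.14 to 9.58 in lean and from 9.64 to 9.82 in obese controls, without overlap (0.28, adjusted p = 0.00471, and 0.0191 without those 3 rats).

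Called enzymes of fatty acid oxidation had no list of their own, and of those named here only Echs1 fell. Echs1, the short-chain enoyl-CoA hydratase of mitochondria, ran from 9.36 through 9.60 to 9.93 in lean and from 8.63 through 9.31 to 9.41 in obese controls. It fell by 0.41 (adjusted p = 0.0209), but the call was lost without lean control 4 or obese control 4 (adjusted p up to 0.0557), and without obese controls 4, 5 and 7 (-0.29, adjusted p = 0.146). None of 21 acyl-CoA thioesterases and synthetases was called, but at the share of all genes (1.76%) a list of this size would hold few or none. Acad11, an acyl-CoA dehydrogenase, ran from 6.53 through 6.85 to 7.32 in lean and from 7.21 through 7.76 to 8.02 in obese controls. All obese rats but 1 lay above every lean rat (0.86, adjusted p = 5.59e-05), and the difference was 1.01 without obese controls 4, 5 and 7. Nudt7, which splits coenzyme A in peroxisomes, ran from 6.55 through 6.89 to 7.07 in lean and from 7.18 through 7.72 to 7.81 in obese controls. The groups were apart (0.83, adjusted p = 0.000137). Ech1, an isomerase for unsaturated chains, rose by 0.42 (adjusted p = 0.0233, lost without lean control 7 or obese control 2, up to 0.0565), and by 0.57 without obese controls 4, 5 and 7 (adjusted p = 0.00113). Hadha, the alpha subunit of the trifunctional protein, rose by 0.30 (adjusted p = 0.0388) and lost its call without any 1 of 13 arrays (adjusted p up to 0.0733), but was at 0.40 without those 3 rats (adjusted p = 0.00792). Cpt1a rose by 0.83 (adjusted p = 0.00202) and Acadl by 0.35 (adjusted p = 0.00118), both without overlap. Cpt1a was highest in obese control 5, at 6.82. Decr1 rose by 0.67 with overlap (adjusted p = 0.013). Without obese controls 4, 5 and 7, Cpt1a, Acadl and Decr1 remained called (adjusted p = 0.0336, 0.00596 and 0.0122). Acsl4, a synthetase that activates arachidonate, differed by 0.65 and was not called (adjusted p = 0.0561).

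Among other metabolic genes, 1 of 62 glutathione, thioredoxin and metallothionein genes was called higher and 1 lower (3.23%, against 1.76% of all genes), and 1 of 26 cytochrome P450 enzymes was called, lower (3.85%). Mid1ip1, an activator of acetyl-CoA carboxylase, ran from 6.78 to 7.53 in lean and from 7.65 to 8.09 in obese controls, without overlap (0.50, adjusted p = 0.00471). Scd, the desaturase that makes monounsaturated fatty acids, was between 5.90 and 7.45 in 7 obese rats and at 9.14 in obese control 5, the rat with liver transcripts, while lean control 2 at 6.66 stood above the 4.64 to 4.92 of the other lean rats. Its difference was 1.68 without obese controls 4, 5 and 7 and was not called there (adjusted p = 0.0929). Gstm5, a glutathione transferase, rose by 0.83 (adjusted p = 0.00068). Sult1a1, a sulphotransferase, was also highest in obese control 5, at 8.81 (0.73, adjusted p = 0.0284, lost without any 1 of 6 arrays, up to 0.0792), and was called without obese controls 4, 5 and 7 (0.82, adjusted p = 0.0285). Serpina3n, a secreted antiprotease also made by liver, reached 9.14 in obese control 5 and was not called (1.05, adjusted p = 0.168, and 0.27 without those 3 rats). On the falling side were Cyp2j4, a cytochrome P450 (-0.57, adjusted p = 0.00127), Nqo2, a quinone reductase (-0.68, adjusted p = 0.0166), Hacd1, of long-chain fatty acid elongation (-0.62, adjusted p = 0.0473, lost without any 1 of 12 arrays, up to 0.101), and Plpp3, a phosphatase of lysophosphatidic acid (-0.60, adjusted p = 0.00238).

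Of 77 Asb, Klhl and Fbxo adaptors of ubiquitin ligases 4 were called, 2 lower and 2 higher (5.19%, against 1.76% of all genes). Asb4 ran from 5.32 through 5.57 to 5.73 in lean and from 6.28 through 6.59 to 7.24 in obese controls. No rat overlapped, obese controls 4 and 7 were highest, and the rise was 1.12 with all rats and 0.99 without obese controls 4, 5 and 7 (adjusted p = 3.98e-06 and 8.43e-05). Fbxo21 rose by 0.38 (adjusted p = 0.0284, but up to 0.0697 when lean control 7, lean control 8, obese control 2 or obese control 6 is left out). Klhl23 fell by 0.62 without overlap (adjusted p = 0.000563), and Klhl31, a Kelch protein of muscle, fell by 0.30 (adjusted p = 0.0176). Otulinl, a relative of the deubiquitinase OTULIN, rose by 0.91 (adjusted p = 0.00678). None of 45 autophagy and lysosome genes and 43 deubiquitinases was called, but lists of these sizes would hold few or no calls at the share of all genes. Fkbp5, the co-chaperone of the glucocorticoid receptor, was lower in obese controls 4, 5 and 7 (6.69, 6.71 and 6.45) than in the other obese rats, and its rise of 0.92 (adjusted p = 0.0417, lost without any 1 of 11 arrays, up to 0.103) was 1.29 without them (adjusted p = 0.00712).

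Of 10 fibroblast markers 1 was called, lower (10%, against 1.76% of all genes), and collagens had no list of their own. The marker was Cd34, a surface protein of stromal and vessel cells, which fell by 0.72 (adjusted p = 0.00118, and 0.0105 without obese controls 4, 5 and 7). Col3a1, a fibril collagen, ran from 7.24 through 7.62 to 7.77 in lean and from 6.40 through 6.74 to 7.11 in obese controls. The groups were apart and the fall was 0.89 without obese controls 4, 5 and 7 (adjusted p = 0.0122). Serpinh1, the collagen chaperone, ran from 7.36 to 7.72 in lean and from 6.72 to 7.29 in obese controls, also apart (-0.44, adjusted p = 0.00284). Col1a1 and Col1a2, the chains of type I collagen, differed by -0.76 (adjusted p = 0.364) and -0.73 (adjusted p = 0.262) and were not called. Their lean ranges were 6.77 to 8.53 and 6.89 to 8.40, and their obese ranges 6.49 to 7.29 and 6.31 to 7.09. Sparc, a collagen-binding matrix protein, differed by -0.48 (adjusted p = 0.122). Of the 10 fibroblast markers 9 were lower and 1 higher. Their median difference was -0.229 with all rats and -0.312 without obese controls 4, 5 and 7. The mean over 10 fibroblast markers was 6.63 to 7.19 in lean and 6.41 to 6.79 in obese controls, and its part in the falls of collagen was not tested.

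Of 14 macrophage markers 1 was called, higher (7.14%, against 1.76% of all genes), and none without obese controls 4, 5 and 7. The other genes with roles in immune cells that are named here had no list of their own. Lyz2, the lysozyme of macrophages, lay between 7.52 and 7.84 in 6 obese rats and at 9.10 and 9.51 in obese controls 4 and 7, against 6.83 to 7.36 in lean rats. The groups were apart, but the difference of 1.00 became 0.58 without obese controls 4, 5 and 7 (adjusted p = 0.218). Leaving out obese control 4 alone ended the call (adjusted p = 0.0568). Plac8, a protein of immune and epithelial cells, rose by 0.36 without overlap (adjusted p = 0.0218, lost without lean control 3, 0.0518). Oas1k, of the interferon-induced synthetases, rose by 0.95 (adjusted p = 0.00195) and by 1.15 without obese controls 4, 5 and 7, while Irf9 fell. Ncf1, of the phagocyte oxidase, fell by 0.52 (adjusted p = 0.0245, lost without lean control 4 or obese control 4, up to 0.0617). Trem3 and Pilrb1l1, of receptor families of myeloid cells, rose by 0.27 (adjusted p = 0.0464) and 0.35 (adjusted p = 0.0219), and Birc3, an inhibitor of apoptosis, by 0.24 (adjusted p = 0.0256). Trem3, Pilrb1l1 and Birc3 lay near the dim end of the array. Trem3 was at 3.22 to 3.55 in lean and 3.54 to 3.75 in obese controls. Tirap, an adaptor of Toll-like receptors, fell by 0.33 (adjusted p = 0.0233), and Gimap4, a GTPase of lymphocytes, by 0.40 (adjusted p = 0.0336). These 5 calls were lost without any 1 of 12, 2, 5, 4 and 9 arrays, in that order, with adjusted p up to 0.103, and Birc3 alone of them was called without obese controls 4, 5 and 7 (adjusted p = 0.0484). The mean over 14 macrophage markers was 4.70 to 5.07 in lean and 4.91 to 5.78 in obese controls, and no marker of the list other than Lyz2 was called. All 14 markers were higher, with a median difference of 0.19 with all rats and 0.0105 without obese controls 4, 5 and 7. Cidea, a lipid droplet protein, differed by 0.84 (adjusted p = 0.125), and Slc4a1, the anion exchanger of red cells, by 0.88 (adjusted p = 0.164), with the erythroid mean highest in obese control 4 at 5.80 against 3.41 to 5.04 in lean rats.

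Some genes with small adjusted p values lay outside the lists. Fam131c, whose function is not well known, ran from 5.12 through 5.60 to 5.80 in lean and from 4.35 through 4.68 to 4.88 in obese controls, without overlap (-0.88, adjusted p = 2.52e-05). Pcnt, a scaffold of the centrosome, ran from 6.01 to 6.15 in lean and from 6.40 to 6.81 in obese controls. It rose by only 0.47, but its lean range was the narrowest of the 192 called genes (adjusted p = 0.000142). Nrep, a regulator of matrix and nerve repair in mouse, ran from 9.41 through 9.89 to 10.26 in lean and from 6.50 through 8.45 to 8.87 in obese controls. Obese controls 7 and 4 were lowest, at 6.50 and 7.25, and the fall of 1.73 was 1.34 without obese controls 4, 5 and 7. Padi2, which converts arginine to citrulline in proteins, fell by 1.66 with all rats and 1.69 without them. Ranbp3l, a nuclear export factor, rose by 0.59 (adjusted p = 0.00583) and Anxa11, an annexin, by 0.36 (adjusted p = 0.00494).

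Among the called falls, the rats that stood apart were most often the lowest obese rats. These falls were called with those rats in the fit, and the same ranking over all tested genes is not given here. Obese control 7 was the lowest of the 8 obese rats in 58 of the 145 called falls, obese control 5 in 23 and obese control 4 in 22, against 6 to 11 in each of the other 5 rats. Obese control 8 was the highest in 39. Over all tested genes the median SD was 0.143 in lean and 0.185 in obese controls, and 71.9% of genes varied more in obese rats. Without obese controls 4, 5 and 7 the median SD in obese rats was 0.144 and 49.9% of genes varied more in them.

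**Figure D4:**
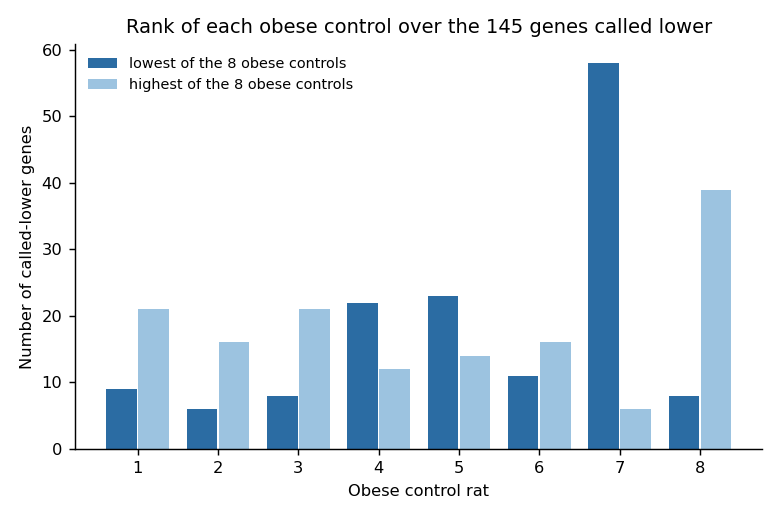
Number of the 145 genes called lower (y axis) in which each obese control rat (x axis) was the lowest (dark) or highest (light) of the 8. Obese control 7 was lowest in 58 genes and obese control 8 highest in 39.

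Without obese controls 4, 5 and 7, 129 genes were called (1.18% of those tested), 73 lower and 56 higher. Without obese control 5 alone 180 were called (1.65%), without obese controls 4 and 7 there were 164 (1.5%), and without these 2 and lean control 2 there were 133 (1.22%). Of the 192 genes called with all rats, 85 remained called, 53 lower and 32 higher, and no called gene changed sign. The median ratio of the difference without those rats to that with them was 0.864 for falls and 1.04 for rises. In all, 106 genes kept their call whichever of the 16 arrays was left out, and 68 of these also without obese control 5, without 4 and 7, and without all 3. These 68 were 45 falls and 23 rises, and in 42 of them the groups were apart. Of the genes named above with a call, Sdhaf2, Lmo4, Pdgfd, Ntn4, Pdlim1, Aplnr, Nqo2, Pcdh12, Plcg1, Klhl31, Bin1, Fndc5, Scarf1, Plac8, Il33, Ncf1, Kit, Atpaf2, Myh7b, Cx3cr1, Sema5a, Prkab1, Timm10b, Sema6a, Smyd1, Bmp4 and Kitlg lost it without obese controls 4, 5 and 7, beside those for which this is given there.

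**Figure D5:**
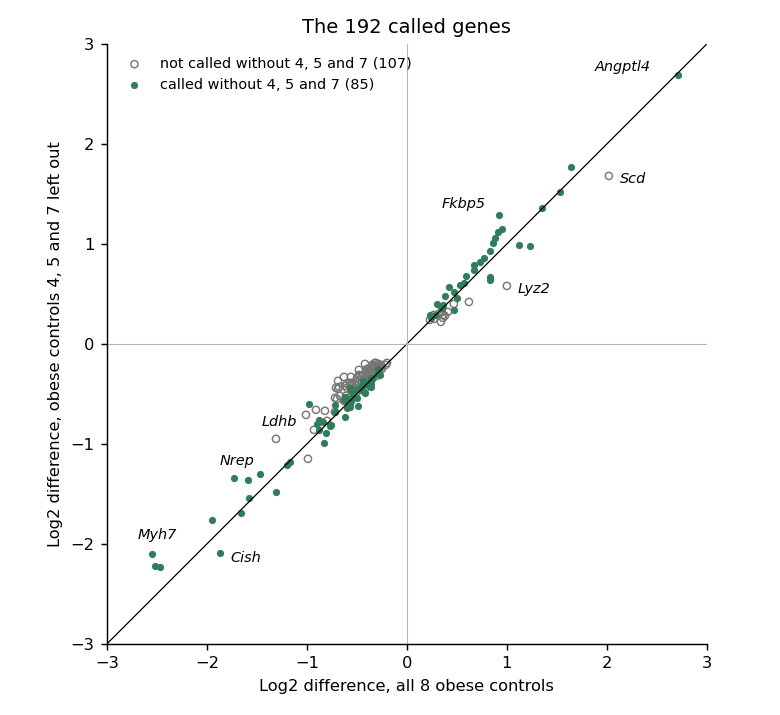
Log2 difference with all 8 obese controls (x axis) and with obese controls 4, 5 and 7 left out (y axis) for the 192 called genes, with equal values on the line. Filled points (85) remained called with 5 obese rats, open points (107) did not, and every point keeps its sign.

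A further 44 genes were called only when those 3 rats were left out, 24 higher and 20 lower. They are named here after their values were seen, and fitted with 5 obese rats. Several of the rises are in fatty acid use. Fabp3, the fatty acid carrier of muscle, had a median of 10.89 in lean rats and 11.36 in the other obese rats, with 10.77, 11.26 and 10.45 in obese controls 4, 5 and 7 (0.45, adjusted p = 0.02). Plin5, which ties lipid droplets to mitochondria, had a median of 7.11 in lean and 7.91 in the other obese rats, with 6.77 and 6.69 in obese controls 4 and 7 (0.81, adjusted p = 0.0191). Both lay below the lean median in obese controls 4 and 7. Cd36, the fatty acid translocase, was at 0.45 (adjusted p = 0.0159), Slc25a20, the carnitine carrier, at 0.43 (adjusted p = 0.0484), and Mlycd, which breaks down malonyl-CoA, at 0.56 (adjusted p = 0.00721). Acot2, a mitochondrial thioesterase, was at 0.64 (adjusted p = 0.00997), Aqp7 at 1.06 (adjusted p = 0.0292), Fabp4, a fatty acid carrier of fat and endothelium, at 0.57 (adjusted p = 0.0337), and Hadhb, the beta subunit of the trifunctional protein, at 0.37 (adjusted p = 0.0322).

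Among the 20 falls called only without those rats were genes of antigen presentation and of collagen processing. Cd74, the invariant chain of class II molecules, had a median of 8.71 in lean and 8.20 in the other obese rats (-0.66, adjusted p = 0.0338), and RT1-Bb, a class II beta chain of the rat, was at -0.47 (adjusted p = 0.0467). Obese controls 4, 5 and 7 were at 8.78, 8.86 and 8.97 for Cd74, above the lean median. Plod2, a lysyl hydroxylase of collagen, was at -0.60 (adjusted p = 0.00712) and Htra1, a secreted serine protease, at -0.50 (adjusted p = 0.0322). Fads2, a fatty acid desaturase, was at 9.52 in obese control 5 against a median of 5.31 in the other obese rats and 6.09 in lean rats (-0.64, adjusted p = 0.0363, and -0.07 with all rats). Ier3, an early stress response gene, was at -0.85 (adjusted p = 0.0101), and stood at 8.01 and 8.13 in obese controls 4 and 7 against a lean median of 7.38.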

How the data were processed

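The series table was deposited as log2 intensities. RMA is named in the submitters' processing notes, and its version is not given in the sources used here. RMA corrects background, quantile-normalises arrays and summarises probes, which takes away differences common to most genes and compresses those of dim features. Of 36685 features, 14824 had 1 gene symbol in the array annotation, 829 had several and 21032 had no name here. The dimmest 25% of genes by mean over 32 arrays (below 3.35) were left out. Limma 3.58.1 in R 4.3.3 fitted a mean for each of 4 groups (28 residual degrees of freedom), with two-sided p values adjusted by Benjamini-Hochberg over 10917 genes. Alternatives were other filters, scalings, weights, sample sets and thresholds, 2 of them (both scalings over the tested genes) chosen after seeing the data. The fit was tested on simulated data with 200 changed genes. The rule for named genes took any called gene, those with the largest differences and list members first, and up to 4 uncalled members of a list, those with the largest difference; genes called only without obese controls 4, 5 and 7 were named after their values were seen. The members, 89 gene lists and alternatives were chosen with earlier results of these data known, and list patterns that caught wrong genes were corrected afterwards. Titles number the rats of each group, and the numbers did not pair them: rats of the same number correlated at -0.225 to 0.228 in their deviations from group means. Gene positions are given for promoters only, because the build of the array annotation is not given. Figures were drawn with matplotlib 3.10.9 in Python 3.11.15.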

Additional observations from a re-analysis of the deposited data

Results flagged for a closer look

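In each control group, the highest or lowest rat of every named gene was set against the other 7. In 32 of 436 groups checked (7.34%) its gap to the nearest rat divided by the range of the group exceeded Dixon's 95% critical value for 8 values, and chance alone gives about 1 in 20. All values are log2 intensities of the rat that stood out. In lean controls these were 6.01 of Rftn1, 7.6 of Hopx, 5.57 of Scube2, 7.03 of Wfdc1, 4.44 of Otulinl, 6.66 of Scd, 4.64 of Hist2h2aa2, 7.8 of Lnpk, 6.18 of Fbxo21, 5.36 of Lurap1l, 4.51 of Nrarp, 4.84 of Rnaseh2b, 7.84 of Nr4a2, 9.56 of Ankrd1, 8.6 of Jph2 and 9.5 of Chrna1. Of the obese controls they were 5.34 of Hopx, 7.18 of Nudt7, 6.52 of Mknk1, 8.09 of Adam9, 6.08 of Cd300lg, 6.91 of Cdc42ep2, 7.76 of Phlda3, 6.36 of Hint3, 4.01 of Vof16, 6.49 of Plac8, 3.69 of Kit, 5.16 of Nrarp, 10.27 of Hadha, 9.87 of Car3, 6.05 of Itgb2 and 9.14 of Serpina3n. Lean control 2 gave 5 of them, obese control 7 gave 5, and obese controls 5 and 8 gave 4 each.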

How the results depend on the processing

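The count of 192 called genes lay within 1.5 times of itself under every alternative except array weights (316) and an adjusted p under 0.1 (354). The genes behind the count changed between settings. A fit to the 16 control arrays alone gave 221 calls. It kept 155 genes of the main list and lost 37, whose calls thus relied on the oil-diet rats in the spread estimate. Centring on the median of the tested genes kept 149 genes of the main list, and array weights kept 182. The 145 falls became 73 without obese controls 4, 5 and 7, 83 without lean control 2 and obese controls 4 and 7, and 256 at an adjusted p under 0.1. The 47 rises became 76 with quantile normalisation over the tested genes, 84 with centring on their median, 102 with array weights and 98 at an adjusted p under 0.1. Leaving out each rat in turn gave 142 to 221 called genes, 102 to 167 lower and 38 to 57 higher. With a replicate block on the number in the titles, 245 genes were called, 190 lower and 55 higher, but the numbers did not pair the rats, and 2 of 8 rats correlated best with their own number. No called gene reversed. Of the uncalled genes named, Ankrd1 and Chrna1 did. Ankrd1 was at -0.1709 without obese controls 4 and 7 and -0.2509 without 4, 5 and 7. Chrna1 was at -0.1701 with array weights, -0.6841 without obese controls 4 and 7, -0.5083 without 4, 5 and 7, and -0.4081 without lean control 2 and obese controls 4 and 7. Leaving out 1 rat at a time moved Chrna1 between -0.1468 and 0.5523. Beyond these values, the cause was not tested. Changes of 0.25 log2 units were mostly missed in simulated data, and dim genes have compressed differences.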
